A study of Mus musculus with 6 samples.

Results

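The 4 Janus kinase genes Jak1, Jak2, Jak3 and Tyk2 and the 4 feedback inhibitor genes Socs1, Socs2, Socs3 and Cish were read from a table of 13912 genes. They were taken by gene symbol, and all 8 were present. The table holds 6 libraries of RNA from 4T1-Luc2-RFP cells, a mammary carcinoma line of BALB/c mice marked with the Luc2 luciferase and a red fluorescent reporter (RFP). In 3 libraries (4T1_6180, 4T1_6183 and 4T1_6186 in their labels) the cells were cultured. In the other 3 (4T1_6181, 4T1_6184 and 4T1_6185) they were sorted by fluorescence (FACS) from mammary gland tumours of the intraductal model. The labels of all 3 tumour libraries also carry the word Right, and those of the cultured libraries the word NonInjected. No drug or further genotype was named for either group, every library carried the same 2 reporters, and the sources used here do not give the age of the animals. All libraries derive from 1 cell line. The sources used here do not tie each library to its own animal or culture flask. A p-value here therefore reflects spread among the libraries alone, and that spread may be technical.

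Janus kinases are tyrosine kinases bound to the inner tails of cytokine receptors. When a ligand brings receptor chains together, the kinases phosphorylate each other, the receptor and the STAT transcription factors, which then enter the nucleus. Among the genes that STATs switch on are those of the SOCS family, whose proteins bind the receptor or the kinase and end the signal. SOCS1 and SOCS3 block the kinase directly, while CISH and SOCS2 act mainly on receptors that use STAT5, and a shared SOCS box recruits a ubiquitin ligase. In mammary epithelium this loop is best known from prolactin signalling, and in leukocytes from interleukin and interferon signalling.

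Of the inhibitor genes, 3 hold letters of STAT-type or interferon-type elements near their start in RefSeq (build GRCm38.p6), and these stretches are shown because their genes were all higher in the tumour libraries. Windows from 250 bases before to 50 bases after the start were available for 7 of the 8 genes, Socs2 being the exception. They were searched on both strands for TTCNNNGAA, a pattern bound by STAT dimers that reads the same on either strand, for its variant with 4 free bases, and for the core of the interferon-stimulated response element (GAAA, any 2 bases, GAAA). Capitals mark the matches, and each stretch is 30 bases long, 5′ to 3′ on the strand of the gene.
Cish: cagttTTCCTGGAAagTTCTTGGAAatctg
Socs3: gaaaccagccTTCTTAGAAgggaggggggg
Socs1: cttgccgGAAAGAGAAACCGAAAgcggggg

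The Cish stretch lies at chr9:107296654-107296683 on the plus strand. It holds 2 STAT-type matches, the first beginning at the RefSeq start and the second 11 bases on, and it lies within an exon of the longer GENCODE transcript Cish-201. The Socs3 stretch, at chr11:117969501-117969530 on the minus strand, holds 1 such match that begins 154 bases before the RefSeq start, and it lies between exons of the longer GENCODE transcript Socs3-202. At chr16:10785597-10785626 on the minus strand, the Socs1 stretch holds 2 overlapping interferon-type matches that begin 83 and 77 bases before the start. Of 32851 windows of this length, 8.30% held TTCNNNGAA at least once and 0.457% held it 2 or more times, while 3.44% held the interferon-type core and 6.95% the variant with 4 free bases. The windows of Jak1, Jak2, Jak3 and Tyk2 held none of the 3 patterns, which says only that these letters are not there. A match is a description of sequence, and binding was not measured.

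Before the results, the labels were set against cell type markers. Epithelial markers (14 of 15 listed were in the table) summed to 2899 to 3771 CPM (reads scaled to a common library total) in culture and 2875 to 3366 CPM in the tumour libraries. These similar sums do not mean that each marker held its level. By the limma test used below, 1 of the 14 rose (Krt14, log2 change 2.13) and 6 fell, among them Cdh1 (-0.91). The 16 macrophage markers summed to 28.5 to 39.1 CPM when cultured and 7153 to 10669 CPM in the tumour libraries, although these are labelled as sorted carcinoma cells. Neutrophil markers (10 of 12 in the table) had cultured sums between 85.5 and 100 CPM and tumour sums between 1343 and 3998 CPM. Mmp9 alone held 88.8, 85.5 and 100 CPM in cultured libraries 4T1_6180, 4T1_6183 and 4T1_6186. In tumour libraries 4T1_6181, 4T1_6184 and 4T1_6185 it held 1291, 1113 and 865 CPM. For lymphocyte markers (7 of 18) the cultured sums were between 3.93 and 8.77 CPM and the tumour sums between 58.2 and 119 CPM. Most of the cultured sums was Lck (8.77, 8.13 and 3.88 CPM), which did not rise (-0.85, limma adjusted p = 0.0962). Most of the tumour sums was Il7r (107, 47.5 and 78.7 CPM). Fibroblast markers (14 of 14) lay between 23.8 and 51.9 CPM in the cultured and between 6918 and 8880 CPM in the tumour libraries, and endothelial markers (12 of 12) between 59.2 and 76.9 CPM and between 274 and 324 CPM. Of these markers 3 for neutrophils, 4 for lymphocytes, 2 for fibroblasts, 2 for endothelium and 0 for macrophages had 0 reads in every cultured library. In all 5 of these lists tumour library 4T1_6184 had the lowest sum of the 3. The leukocyte gene Ptprc (CD45) had 7 reads over the 3 cultured libraries and 264 to 636 CPM in the tumour libraries. The part of such cells in the results below was not tested. In bulk RNA, more cells of a type and more RNA per cell cannot be told apart.

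All 8 genes were higher in the tumour libraries. By limma on the deposited log2 CPM, with Benjamini-Hochberg adjustment at 0.05, 8 of 8 rose and 0 fell, where 29.5% of all genes rose and 18.8% fell. The lowest tumour library lay above the highest cultured one for 8 of 8 genes, against 34.6% of all genes. The 8 were chosen with earlier results of these data known, so these counts are a description and not a test. The median log2 change was 1.57 for the kinases and 2.08 for the inhibitors, against 0.08 over all genes. Each of the 8 had at least 128 reads in every library, so none was in the table through its tumour reads alone. Of all changed genes 61.1% were higher as deposited, 48.1% with libraries centred on their medians, 35.2% after quantile normalization and 72.8% when scaled to epithelial markers. Those scalings put the median change of all genes at -0.14, -0.32 and 0.27, and all 8 genes kept their direction under each. Tumour library 4T1_6181 had the highest of the 3 tumour values for 8 of 8 genes, and library 4T1_6184 the lowest for 7. The shares of all genes with that order are not given here, so it is not shown to be particular to the 8.

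**Figure D1:**
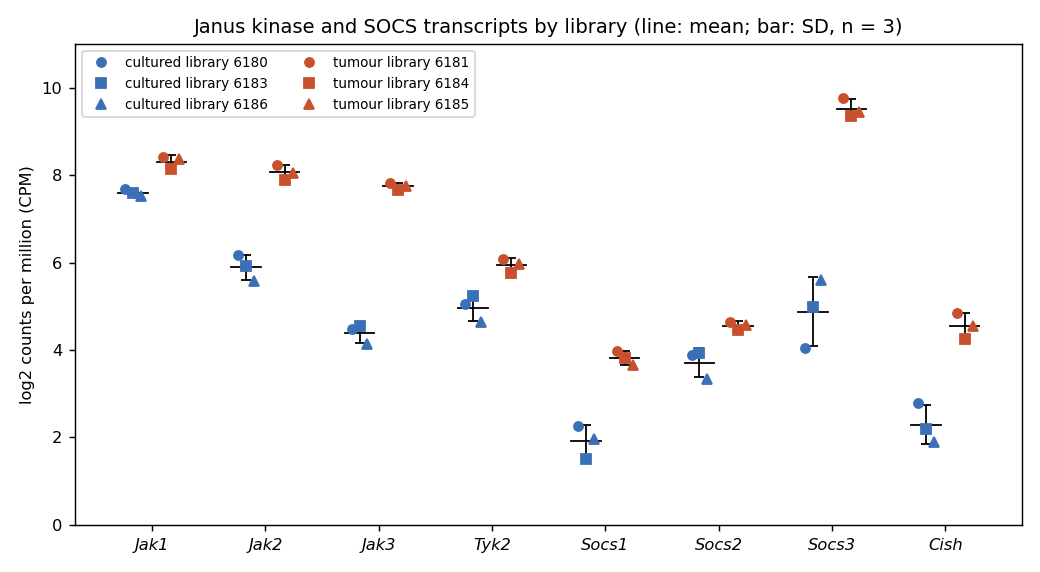
Points are log2 CPM of each gene in each of the 6 libraries, blue for cultured and red for tumour, with the mean as a line and the SD as a bar (n = 3). The red points lie above the blue ones for every gene, with the widest gap for Socs3 and the narrowest for Jak1.

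Jak1, the kinase shared by the interferon receptors and by the interleukin-6 and gamma-chain families, lies on chromosome 4 from 101152367 to 101265282 of GRCm38 (GENCODE M21, as are the positions that follow). It stood at 205, 193 and 185 CPM in cultured libraries 4T1_6180, 4T1_6183 and 4T1_6186 and at 340, 280 and 329 CPM in tumour libraries 4T1_6181, 4T1_6184 and 4T1_6185. The groups did not overlap, but the step between them was the smallest of the 8, with 0.45 between the nearest libraries on the log2 scale. Its log2 change was 0.70 (SE 0.15, limma adjusted p = 0.00552), or 1.62-fold, and 30.9% of all genes had a larger rise. Jak1 overlaps Raver2 on the opposite strand, a gene at a mean of -0.13 log2 CPM in the tumour libraries. The sources used here do not say if counting took the strand into account.

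Jak2 serves the receptors for growth hormone, prolactin, erythropoietin, GM-CSF and interferon gamma, and lies on chromosome 19 from 29251828 to 29313080. Its values were 72.4, 60.4 and 48.1 CPM when cultured and 301, 239 and 268 CPM in the tumour libraries. Every tumour library exceeded every cultured one by at least 1.72 on the log2 scale. The log2 change was 2.17 (SE 0.19, limma adjusted p = 4.65e-05), or 4.51-fold.

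Jak3, the kinase that pairs with the common gamma chain and is known mainly from lymphoid and myeloid cells, lies on chromosome 8 from 71676296 to 71690575. It was measured in culture at 22.5, 23.2 and 17.6 CPM, from 958, 1050 and 613 reads, in libraries where Ptprc had 7 reads in all. The tumour libraries stood at 225, 203 and 217 CPM. This was the tightest of the 8 genes in the tumour group, with a range of 0.15 on the log2 scale, and its log2 change was 3.36 (SE 0.16, limma adjusted p = 2.25e-06), or 10.2-fold. Its receptor partner Il2rg, singled out here after its values were seen, had 41 reads over the cultured libraries and 92.7, 56.7 and 86.0 CPM in the tumour libraries. Jak3 shares part of its span and strand with Insl3, which had a mean of -0.86 log2 CPM in the tumour libraries.

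Tyk2, used by the receptors for type I interferons, interleukin-10 and interleukin-12, lies on chromosome 9 from 21104068 to 21131243. Cultured values were 33.1, 37.5 and 24.9 CPM and tumour values 67.8, 54.5 and 62.7 CPM. The groups were 0.54 apart on the log2 scale at their nearest, and the log2 change was 0.97 (SE 0.20, limma adjusted p = 0.00468), or 1.96-fold. Its span also holds 1700084C06Rik, an antisense gene that was not among the genes tested. Jak1 and Tyk2 had the smaller rises of the 4 kinases and Jak2 and Jak3 the larger ones.

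Levels of different genes were compared only as CPM per kilobase of merged exon. On that scale the 4 kinases summed to 47.5 ± 4.91 in cultured cells and 146 ± 13.6 in the tumour libraries (SD, n = 3). Jak1 made up 54.8%, 55.1% and 60.9% of that sum in the cultured libraries and 29.6%, 29.3% and 30.7% in the tumour libraries. Jak3 went from 8.11%, 8.92% and 7.81% to 26.5%, 28.7% and 27.3%, and Jak2 from a mean share of 25.1% ± 2.55 to 36.5% ± 1.02 (SD, n = 3). The share of Tyk2 was 9.72% ± 1.37 in cultured cells and 6.13% ± 0.10 in the tumour libraries (SD, n = 3). Such shares do not change when a library is scaled by 1 factor, and they were not recomputed under quantile normalization. For each of the 4 the groups did not overlap, and the two-sided exact permutation test gave p = 0.1 (adjusted p = 0.1 over the 8 genes), which is the smallest that 3 libraries against 3 allow. In the order of levels Jak1 (26.9) stood above Jak2 (12.0) in culture without overlap, followed by Tyk2 (4.63) and Jak3 (3.94), whose libraries overlapped. In the tumour libraries Jak2 (53.5) stood above Jak1 (43.7) without overlap, Jak1 and Jak3 (40.1) overlapped, and Tyk2 (8.99) was lowest. With the length of the longest transcript in place of merged exons, Jak1 (64.4) came before Jak2 (53.5) in the tumour libraries and their ranges overlapped, so the order of these 2 rests on the gene model.

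**Figure D2:**
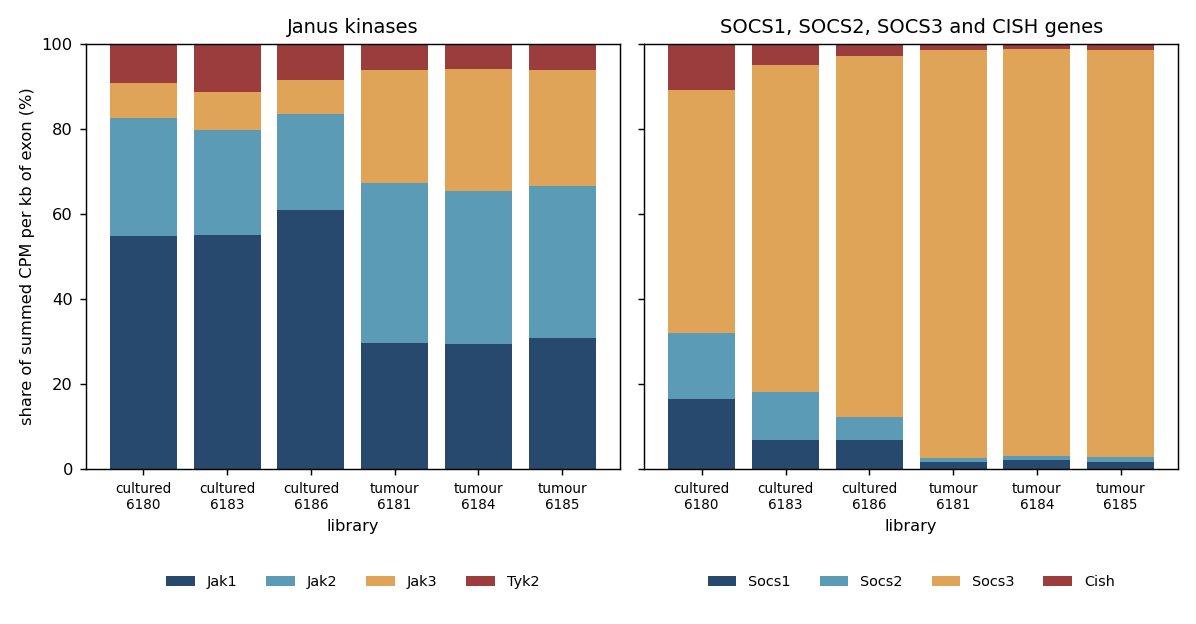
Bars are the shares, in percent, of each gene in the summed CPM per kilobase of exon of its family, 1 bar per library. In the left panel Jak1 holds 54.8% to 60.9% in the cultured libraries and 29.3% to 30.7% in the tumour libraries. In the right panel Socs3 holds 57.2% to 85.0% in culture and at least 95.7% in the tumour libraries.

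Among the inhibitors, Socs3 had the largest change of the 8 genes. SOCS3 is the main brake on receptors that signal through STAT3, and its gene lies on chromosome 11 from 117966079 to 117970047. Its values were 16.4, 31.8 and 48.4 CPM in cultured libraries 4T1_6180, 4T1_6183 and 4T1_6186 and 874, 656 and 697 CPM in tumour libraries 4T1_6181, 4T1_6184 and 4T1_6185. The cultured libraries spread widely, by 1.56 on the log2 scale, with 4T1_6186 highest, yet the nearest tumour library was 3.76 above it. The log2 change was 4.65 (SE 0.36, limma adjusted p = 2.61e-05), or 25.1-fold, and 11.6% of all genes rose further. Socs3 made up 73.0% ± 14.3 of the summed level of the 4 inhibitors per kilobase in cultured cells and 95.9% ± 0.151 in the tumour libraries (SD, n = 3).

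Cish, a STAT5 target that acts on receptors for interleukin-2, prolactin and growth hormone, lies on chromosome 9 from 107296026 to 107302784. It stood at 6.90, 4.57 and 3.70 CPM when cultured and at 28.8, 19.2 and 23.4 CPM in the tumour libraries, without overlap. The log2 change was 2.26 (SE 0.29, limma adjusted p = 0.000476), or 4.79-fold as deposited, and 1.62 (limma adjusted p = 0.000937) after quantile normalization. Gm17040 and Gm17041 are annotated on the opposite strand across part of its span and were not among the genes tested.

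Socs1, whose protein is a potent inhibitor of interferon signalling, lies on chromosome 16 from 10782240 to 10785536, and its promoter holds the overlapping interferon-type matches printed above. It stood at 4.79, 2.83 and 3.88 CPM in culture (204, 128 and 135 reads) and 15.6, 14.1 and 12.6 CPM in the tumour libraries. The groups were 1.40 apart on the log2 scale at their nearest. The log2 change was 1.90 (SE 0.27, limma adjusted p = 0.000744), or 3.74-fold as deposited and 1.04 (limma adjusted p = 0.012) after quantile normalization.

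Socs2, the regulator of growth hormone receptor signalling, lies on chromosome 10 from 95385362 to 95417180. It stood at 14.7, 15.2 and 10.1 CPM when cultured and 25, 21.9 and 23.8 CPM in the tumour libraries. The groups did not overlap, and the log2 change was 0.84 (SE 0.22, limma adjusted p = 0.0145), or 1.79-fold. Over the 12 alternatives run, this was the only one of the 8 calls to be lost, with limma adjusted p up to 0.0706. It was lost after quantile normalization (0.45, limma adjusted p = 0.0649), without tumour library 4T1_6181 (0.80, limma adjusted p = 0.0706) and without tumour library 4T1_6185 (0.83, limma adjusted p = 0.0642).

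Per kilobase the 4 inhibitors summed to 14.6 ± 4.90 in cultured cells and 268 ± 41.2 in the tumour libraries (SD, n = 3). Their sum divided by that of the kinases was 0.192 to 0.468 in the cultured libraries and 1.70 to 1.98 in the tumour libraries. This ratio mainly follows Socs3, which had a mean of 11.1 of the cultured and 257 of the tumour inhibitor sums. The levels of Socs1, Socs2 and Cish rose, but their shares of the sum were lower in every tumour library than in any cultured one. Shares within a family depend on each other, so these falls are the counterpart of the larger Socs3 share. Socs1 held 16.5%, 6.81% and 6.76% of the cultured sums and 1.71%, 2.04% and 1.72% of the tumour sums. Socs2 held 15.5%, 11.2% and 5.36% against 0.834%, 0.967% and 0.991%, and Cish 10.8%, 4.99% and 2.93% against 1.42%, 1.26% and 1.45%. Cultured library 4T1_6180 was highest for all 3 (Socs1 6.79%, Socs2 8.28% and Cish 3.96% on average without it). With the longest transcript as length the mean share of Socs2 was 18.9% when cultured and 1.83% in the tumour libraries. For each the groups did not overlap, with exact permutation p = 0.1, again the smallest possible. Among the 4 inhibitors, Socs3 (11.1) was the highest per kilobase in culture, and Socs2 (1.40), Socs1 (1.32) and Cish (0.788) overlapped with their neighbours in that order. Socs4, Socs5, Socs6 and Socs7 were left out of these sums, shares and order, and their levels per kilobase were not computed. In the tumour libraries Socs3 (257) stood above all 7 other genes, Socs1 (4.85) and Cish (3.71) overlapped, and Socs2 (2.47) was lowest. With the longest transcript as length, in the tumour libraries, Socs2 (5.55) came before Cish (5.06) and Socs1 (4.85), and these 3 overlapped in order.

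None of the other SOCS genes passed as higher. Socs4, Socs5, Socs6 and Socs7 encode members with longer amino-terminal parts, and those of SOCS4 and SOCS5 are known from growth factor receptors. Of these 4 genes 0 rose and 3 fell, with a median log2 change of -0.68. Socs7 went from 131, 107 and 63.7 CPM in culture to 55.1, 62.3 and 47.8 in the tumour libraries, a log2 change of -0.81 (SE 0.27; adjusted p by limma = 0.0385). Socs4 changed by -0.77 (limma adjusted p = 0.0284) and Socs5 by -0.58 (limma adjusted p = 0.0491), and Socs6, at -0.19 (SE 0.21, limma adjusted p = 0.473), did not pass. The 3 falls were near the threshold: none was called when libraries were scaled to epithelial markers, or without cultured library 4T1_6180 or any 1 of the tumour libraries, and 1 was called with no variance trend or without cultured library 4T1_6183. Socs6 stood at 0.02 without cultured library 4T1_6180. The 6 genes listed as SOCS box partners encode parts of ubiquitin ligases, and not all of them need act with SOCS proteins. They showed 0 rises and 2 falls, where 29.5% of all genes rose and 18.8% fell. The falls were in Cul5 (-0.67, SE 0.15, limma adjusted p = 0.00799) and Cul2 (-0.45, SE 0.15, limma adjusted p = 0.0377). Only 1 fall was called with no variance trend, with epithelial scaling, without cultured library 4T1_6183 or without any 1 tumour library, and 1 gene was called higher with library weights or without cultured library 4T1_6186. The elongin B gene, listed as Tceb2, had means of 6.33 and 6.26 log2 CPM.

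**Figure D3:**
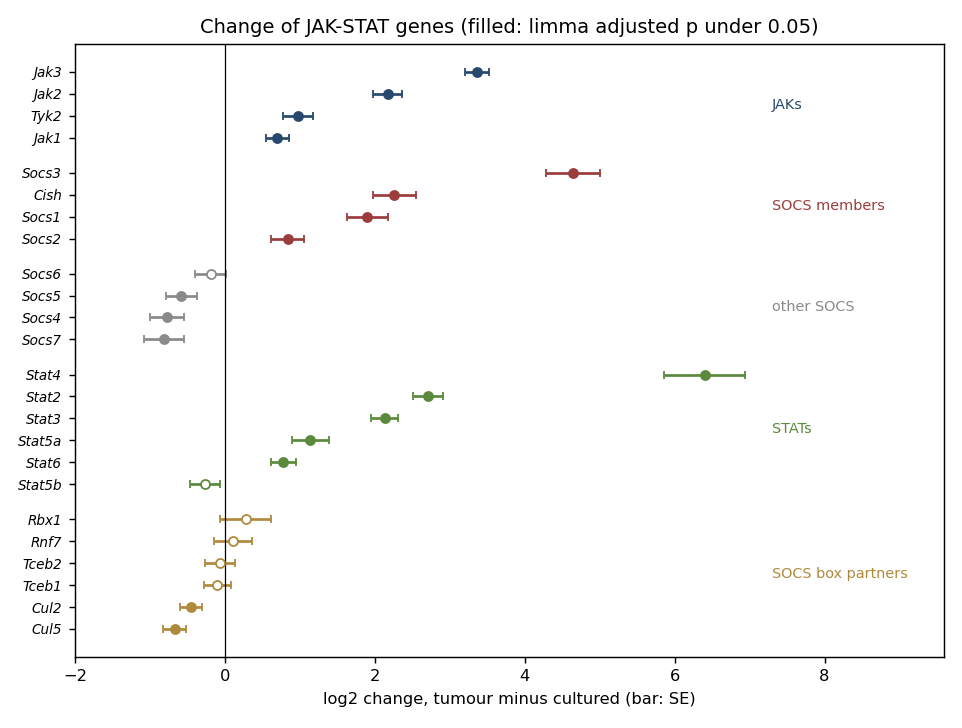
Points are log2 changes, tumour minus cultured, with the SE as a bar, grouped by list and filled where limma's adjusted p was under 0.05. The 4 kinases and 4 inhibitors lie right of 0, from 0.70 for Jak1 to 4.65 for Socs3, while Socs4, Socs5, Socs6 and Socs7 lie left of it.

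Of the 6 listed STAT genes, which encode factors these kinases activate, 5 rose and 0 fell, with a median log2 change of 1.64. Over all genes 29.5% rose and 18.8% fell. Among the 5 STAT genes with at least 10 cultured reads 4 rose, beside 22.2% of all genes with as many. Stat3, the factor of the interleukin-6 family, went from 73.8, 80.6 and 94.4 CPM to 437, 301 and 356, a change of 2.13 (SE 0.18, limma adjusted p = 4.65e-05). Its groups did not overlap, and tumour library 4T1_6184 was the lowest of the 3. Stat2, a factor of type I interferon signalling, changed by 2.71 and Stat6, the interleukin-4 factor, by 0.78 (limma adjusted p = 0.00721). Stat5a, a factor of prolactin signalling, went from 13.7, 20.2 and 10.6 CPM to 30.9, 31.8 and 32.1, a change of 1.14 (SE 0.25, limma adjusted p = 0.00697). Stat4 had 1 read over the cultured libraries, and the ratio of CPM was 189 (95% counting interval 33.5 to 7520). Stat5b, a factor of prolactin and growth hormone signalling, had a value of -0.26 (SE 0.20, limma adjusted p = 0.308), and reads of the near-identical Stat5a and Stat5b are uncertain where counting could not separate them.

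Inhibitors outside the SOCS family moved in both directions. Of 12 such genes 6 rose and 1 fell, with a median of 0.57, where 29.5% of all genes rose and 18.8% fell. Ptpn6 encodes the phosphatase SHP-1 of blood cells and went from 9.48, 11.4 and 14.1 CPM to 172, 112 and 124, a log2 change of 3.54 (SE 0.23). Usp18, which blocks the type I interferon receptor, changed by 4.55 (SE 0.77, limma adjusted p = 0.00195), while Ptprc, the phosphatase CD45, had the 7 cultured reads given above. Among the 11 of these inhibitors with at least 10 cultured reads 5 rose, beside 22.2% of all genes with as many. Ptpn1, a phosphatase that acts on JAK2 and TYK2, changed by 1.21 (SE 0.20, limma adjusted p = 0.00159). Ptpn11, which encodes SHP-2, fell, with a change of -1.16 (SE 0.18, limma adjusted p = 0.00118).

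Receptor chains upstream of the kinases rose in 25 of the 34 tested (of 38 listed) and fell in 0, with a median of 2.58. Over all genes 29.5% rose and 18.8% fell. After quantile normalization 24 of these chains rose and 6 fell. Of the 34, 6 had under 10 reads over the cultured libraries, so their direction was set by their presence in the table. Among the other 28 a rise was called in 19, beside 22.2% of all genes with at least 10 cultured reads. The largest fitted changes were those of Csf3r, the G-CSF receptor of neutrophils, Il10ra, Csf2ra and Il7r, each with 2 or 3 cultured reads. Their ratios of CPM were 8620 (95% counting interval 2950 to 41800), 8990 (2490 to 74200), 7270 (2010 to 60100) and 4720 (1310 to 39000). These intervals cover counting error only. Il21r and Prlr had 0 cultured reads and were at least 1100-fold and 41.8-fold higher in the tumour libraries, taking 3 reads over the group as the floor. Il4ra, the receptor chain for interleukin-4 and interleukin-13, was measured in both groups and went from 37.1, 38.2 and 43.8 CPM to 350, 251 and 361, a log2 change of 3.00 (SE 0.18). Il6st, the signalling chain of the interleukin-6 family, had 213, 148 and 122 CPM when cultured and 96.1, 110 and 106 in the tumour libraries, and its change of -0.59 (SE 0.21, limma adjusted p = 0.0529) did not pass.

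**Figure D4:**
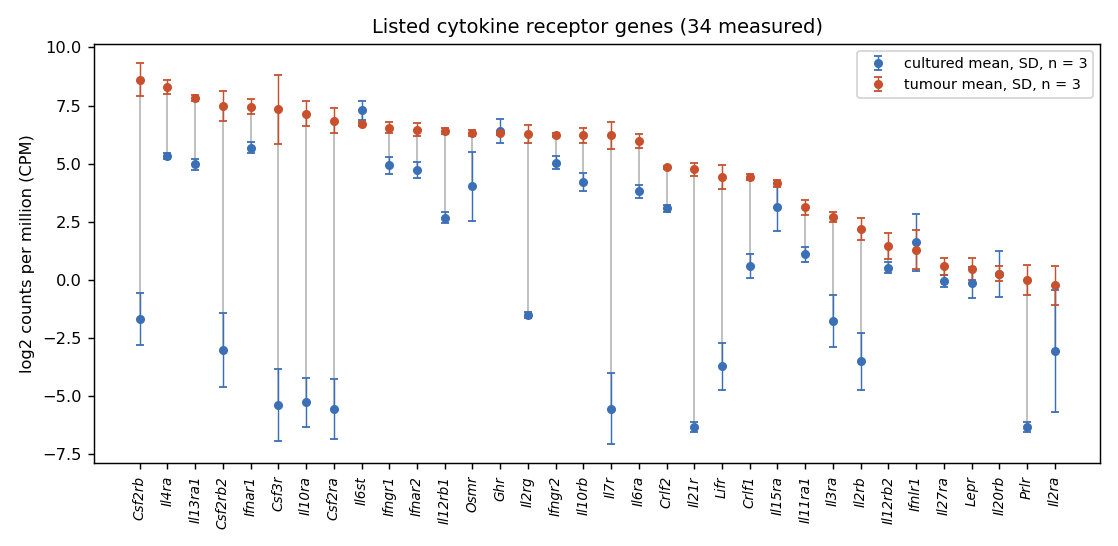
Points are mean log2 CPM of 34 listed cytokine receptor genes, blue for cultured and red for tumour, with the SD as a bar (n = 3), ordered by the tumour mean. Chains such as Il4ra lie above 5 in both groups, while Csf3r, Il10ra, Csf2ra and Il7r lie below -5 in culture.

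Of 33 ligand genes 18 were tested, and 9 rose and 1 fell, where 29.5% of all genes rose and 18.8% fell. Of the 18, 6 had under 10 reads over the cultured libraries. Among the other 12 a rise was called in 3, near the 22.2% of all genes with at least 10 cultured reads. Osm, the oncostatin M gene, went from 0.282, 0.177 and 0.201 CPM to 645, 346 and 516, a log2 change of 11.06 (SE 0.30), and Il6 had 9 cultured reads and 47.9, 21.6 and 33.5 CPM in the tumour libraries. Il10 and Ebi3 each had 1 cultured read, with ratios of CPM of 3970 (95% counting interval 713 to 157000) and 764 (137 to 30200). Lif and Csf3, named for the highest mean log2 CPM over the 6 libraries, did not pass, at -0.53 (SE 0.38, limma adjusted p = 0.275) and -0.84 (SE 0.42, limma adjusted p = 0.134). The 1 that fell was Csf2, the GM-CSF gene, named because the count is small, with a change of -2.36 (SE 0.63, limma adjusted p = 0.0166). Cultured library 4T1_6180 held 80.8 CPM of Csf2, against 14.9 and 20.8 in the other cultured libraries. No ligand was called lower without tumour library 4T1_6181 or 4T1_6185, while 3 were without cultured library 4T1_6183, 4 after quantile normalization and 5 with library weights. Known STAT targets rose in 20 of 27 cases and fell in 1, Myc (-2.07, SE 0.41, limma adjusted p = 0.00446). Of the 27, 3 had under 10 cultured reads, and among the other 24 a rise was called in 17. Among the targets Il1rn, the interleukin-1 antagonist, changed by 12.24 and Arg1, the arginase of activated macrophages, by 10.67. The acute phase genes Hp and Lrg1 had 4 cultured reads each, so their direction was set by their presence in the table. Hp stood at 68.8, 10.3 and 38.0 CPM and Lrg1 at 48.0, 14.0 and 44.4 CPM in the tumour libraries, with 4T1_6184 lowest for both. Junb, an AP-1 subunit, changed by 2.02 (SE 0.26) and Ccnd1, cyclin D1, had a value of -0.41 (SE 0.28, limma adjusted p = 0.255). Over the 106 other listed genes of the pathway, each counted once, 64 rose and 8 fell. Without the 17 that had under 10 cultured reads, 47 of 89 rose (52.8%) and 8 fell (8.99%). Of the 12617 genes in the table with at least 10 cultured reads, 22.2% rose and 20.7% fell. The lists were chosen with earlier results of these data known, so this comparison is a description and not a test. The falls among the 106 ranged from 3 to 18 over the alternatives. Of the leading pathway genes, Ptprc, Csf3r and Il7r also stand in the macrophage, neutrophil and lymphocyte marker lists.

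Genes whose pattern over the 6 libraries was most like each of the 8 were found by the root mean square (RMS) difference of log2 CPM, each gene centred on its own mean, among 9049 genes. This measure largely follows the size of the change between the groups, and shared regulation was not tested. The log2 changes were 0.70 for Jak1 and 0.67 for Atg3, its nearest gene. They were 2.17 for Jak2 and 2.16 for Bhlhe40, and 3.36 for Jak3 and 3.35 for Antxr1. Jak1 was nearest to Atg3 (0.033), Jak2 to Bhlhe40 and P2rx4 (0.084 each) and Jak3 to Antxr1 (0.083). Tyk2 was nearest to Zdhhc18 (0.052), Socs2 to Igf2r (0.052), and Cish to Crem (0.102). Socs1 had as its nearest genes Cx3cl1 (0.099), Psme2b (0.101) and Psme2 (0.14), of which Psme2 encodes an activator subunit of the proteasome and Psme2b is a close copy whose reads are uncertain. Il6ra was among the 3 nearest of both Jak2 (0.11) and Cish (0.119). Socs3 had no neighbour as close, with Klf4 at 0.302, Il18bp at 0.32 and Sema6d at 0.411. It also had the widest cultured range of the 8 genes, 1.56 on the log2 scale.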

How the data were processed

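The authors deposited 1 table of log2 CPM for 13912 genes. HISAT, HTSeq, limma and the mm10 build are named, without versions, per the submitters' processing notes. The table has the form of limma's voom with scaled library totals. Solving that form for reads gave whole numbers (tolerance 0.01) in 100% of the values, with 35448588 to 41469090 reads per library and at least 61 reads per gene over the 6 libraries. At this depth counting error is small for the 8 genes. Groups were compared across all genes with limma 3.58.1 in R 4.3.3 (variance trend, two-sided, Benjamini-Hochberg at 0.05). The fit was tested on simulated data first. A change is the tumour minus the cultured mean, and SE is limma's moderated one. Gene models came from GENCODE M21 on GRCm38, the assembly of mm10, and promoter windows from RefSeq. Elob and Eloc were matched under their older symbols Tceb2 and Tceb1.

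Members and lists were chosen with earlier results of these data known, and 1 pathway gene is not reported here and was left out of its list. Named genes were the 8, then from each pathway list up to 4 called genes with the largest change and the 2 with the highest mean, and the 3 genes most like each of the 8 with a group mean of at least 4 log2 CPM, without predicted or clone names. Genes with 1 to 3 cultured reads are given as a ratio with its 95% exact counting interval. Label numbers are not shared between groups, so nothing paired the libraries. Alternatives were other scalings, a filter at 1 log2 CPM, no variance trend, library weights, leaving out each library, and for shares the gene length and 1 CPM added. Scaling to 11 epithelial markers was added after seeing the data.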

Additional observations from a re-analysis of the deposited data

How the results depend on the processing

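Of 96 values of the 8 genes under 12 alternatives, 93 kept their direction and their side of the threshold, 3 kept the direction only (all for Socs2, given in the report) and 0 reversed. Most of these alternatives could not reverse a direction. The groups did not overlap for any of the 8, so leaving out or weighting libraries kept the sign by construction. The filter and the fit with no variance trend left each change as it was. Shares within a family kept their direction under the gene length, the added CPM and each library left out. The last was again fixed by construction, because the shares did not overlap between groups. Over all genes, 2612 were lower as deposited, 5513 after quantile normalization and 1731 when scaled to epithelial markers, and 1520 to 3301 with 1 library left out. Among the 106 other pathway genes, 8 were lower as deposited, 18 after quantile normalization, 5 with no variance trend, 14 with library weights and 4 when scaled to epithelial markers, and 3 to 11 with 1 library left out. Socs6, at -0.19, ranged from -0.32 to 0.02 with 1 library left out. Leaving out a library leaves fewer samples by construction; otherwise the cause was not tested. No paired analysis was possible because the groups share no label numbers. Genes with few cultured reads have changes limited by counting, and 3 libraries a group limit the exact permutation test of shares to p = 0.1.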
